A study of Mus musculus with 6 samples.

Results

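mmu-miR-103 and mmu-miR-107 are microRNA paralogs whose hairpins lie inside genes of the Pank family, which encode pantothenate kinases, the enzymes that open the synthesis of coenzyme A. They are 2 of the 577 microRNA entries on each array, found by their names in the scanner files. They were selected on their measured signals, which were both higher in large than in small oocytes of young mice, so their values in that comparison are given as a description and without a test. Total RNA of pooled oocytes from C57BL/6 mice, labelled with cyanine 3, was measured on 6 one-colour Agilent arrays, in 3 groups of 2. Aged large oocytes were 60 to 80 µm across and came from mice of 41 to 43 weeks, or of 42 to 44 weeks in the free-text descriptions. Young large oocytes, also 60 to 80 µm, were taken from mice of 6 to 8 weeks. Young small oocytes, 20 to 50 µm across, were taken from mice of 6 to 8 weeks too, and the labels call them non-growing and place them in primordial follicles. The series text calls the arrays duplicate runs, and nothing in the labels ties them to separate animals or pools, so a p-value here covers the spread between arrays alone, which may be technical.

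A microRNA is cut from a hairpin and guides silencing proteins to messenger RNAs, chiefly through its seed, the bases near its 5′ end. miR-103 and miR-107 are known for targeting Dicer, the enzyme that makes most mature microRNAs, and caveolin-1 in mouse liver and fat, where they lower insulin sensitivity. miR-107 has also been linked to p53 and to the hypoxia response in human cells. In mouse oocytes, silencing by microRNAs in general is known to be weak. The Pank messenger RNAs and the microRNAs' targets were not measured on these arrays.

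The mature sequences are shown because they tell how far the 2 entries can be told apart. They are the RefSeq sequences (GRCm38.p6) under the present names miR-103-3p and miR-107-3p, 5′ to 3′, with the seed (bases 2 to 8) in capitals. The mature sequences of 3 relatives that share part of the seed are set below them.
miR-103: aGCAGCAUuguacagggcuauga
miR-107: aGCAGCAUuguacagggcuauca
miR-15a: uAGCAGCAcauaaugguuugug
miR-15b: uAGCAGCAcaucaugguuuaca
miR-16: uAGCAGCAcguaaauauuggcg
Over 23 bases the members were identical at 22 and differed by G22C, counted from 1 at the 5′ end with the base of miR-103 first. Of 1679 mature mouse microRNAs in the RefSeq table, 2 (0.119%) carried the seed GCAGCAU at bases 2 to 8, and these were miR-103-3p and miR-107-3p. The letters AGCAGCA stood at bases 1 to 7 of the same 2, and at bases 2 to 8 of 10 others (0.596%), miR-15a, miR-15b and miR-16 among them. The scanner files give 1 summed signal per microRNA and no probe sequence, so how much of either signal came from the other RNA was not tested.

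The hairpins are shown with the mature arm in capitals, since miR-103 has 2 source genes and miR-107 has 1.
Mir103-1: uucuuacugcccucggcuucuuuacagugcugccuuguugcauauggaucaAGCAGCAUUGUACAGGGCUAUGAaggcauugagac
Mir103-2: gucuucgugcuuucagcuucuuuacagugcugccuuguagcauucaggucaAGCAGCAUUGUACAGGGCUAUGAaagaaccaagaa
Mir107: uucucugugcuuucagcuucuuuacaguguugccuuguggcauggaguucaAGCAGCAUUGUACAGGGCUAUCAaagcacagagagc
In the RefSeq table (GRCm38.p6), Mir103-1 is at chr11:35782396-35782481 on the plus strand, inside Pank3. Mir103-2 is at chr2:131288052-131288137 on the plus strand, inside Pank2. Mir107 is at chr19:34820687-34820773 on the minus strand, inside Pank1. Each hairpin had the strand of its host gene. The label of the pair places them in introns, and the table used here lists gene spans without exons. Both Mir103 hairpins yield the same mature sequence, so the miR-103 signal cannot be divided between Pank3 and Pank2. Aligned over their whole length, Mir103-2 and Mir107 were 83.9% identical, Mir103-1 and Mir107 80.5%, and Mir103-1 and Mir103-2 80.2%.

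Both members were detected on all 6 arrays, as were 56 of the 577 entries. The deposited total signal, a linear intensity with the background subtracted and not normalized between arrays, is given first, with the error that the scanner software deposited for it. miR-103 had 39.3 ± 3.45 and 43.8 ± 3.76 in aged large, 85.5 ± 6.84 and 65.7 ± 5.37 in young large, and 18.9 ± 2.08 and 20.2 ± 2.12 in young small oocytes. The groups did not overlap, with young large oocytes brightest and young small ones dimmest. miR-107 had 31.4 ± 3.05 and 36.7 ± 3.27 in aged large, 68.4 ± 5.80 and 53.7 ± 4.71 in young large, and 15.9 ± 1.98 and 15.5 ± 1.87 in young small oocytes. It showed the same order, again without overlap. The share of all entries with that order was not counted. The signal was between 8.04 and 12.5 times its error over both members and all arrays, lowest in young small oocytes, and between 85% and 100% of each member's spots were kept as inliers.

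Whole arrays differed in brightness in the same order. The factor that put an array on a common scale was 0.954 and 1.06 in aged large, 1.94 and 1.48 in young large, and 0.582 and 0.589 in young small oocytes. Each factor is an array's 75th percentile, taken over the 56 entries that all 6 arrays detected, divided by the geometric mean of the 6 percentiles. Labels give no number of oocytes per pool, so fewer cells and less RNA per cell cannot be told apart in any raw difference. Between 88.5% and 91.0% of an array's detected signal was that of miR-720, an entry now held to be a piece of a transfer RNA.

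After scaling, the differences between groups were much smaller. miR-103 had scaled signals of 41.2 and 41.3 in aged large, 44.02 and 44.3 in young large, and 32.4 and 34.2 in young small oocytes. miR-107 had 32.9 and 34.6 in aged large, 35.2 and 36.2 in young large, and 27.3 and 26.4 in young small oocytes. For both, the arrays kept the order young large, aged large, young small without overlap between groups. The share of all microRNAs with that full order was not counted. Both aged large arrays lay below both young large ones for 27.8% of the 97 tested. Both young large arrays lay above both young small ones for 27.7% of the 94 tested, the step for which the members were picked. Under this scaling the step between the 2 large groups was small beside the step down to the small one. That relation depended on the scaling. With the total signal as the scale, the log2 difference of miR-103 was -0.52 for aged large minus young large oocytes. For young large minus young small oocytes it was then 0.84. All 12 values lay between 4.27 and 7.18 times the floor of 6.17 below which scaled signals were set to the floor, so none of them was floored.

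**Figure D1:**
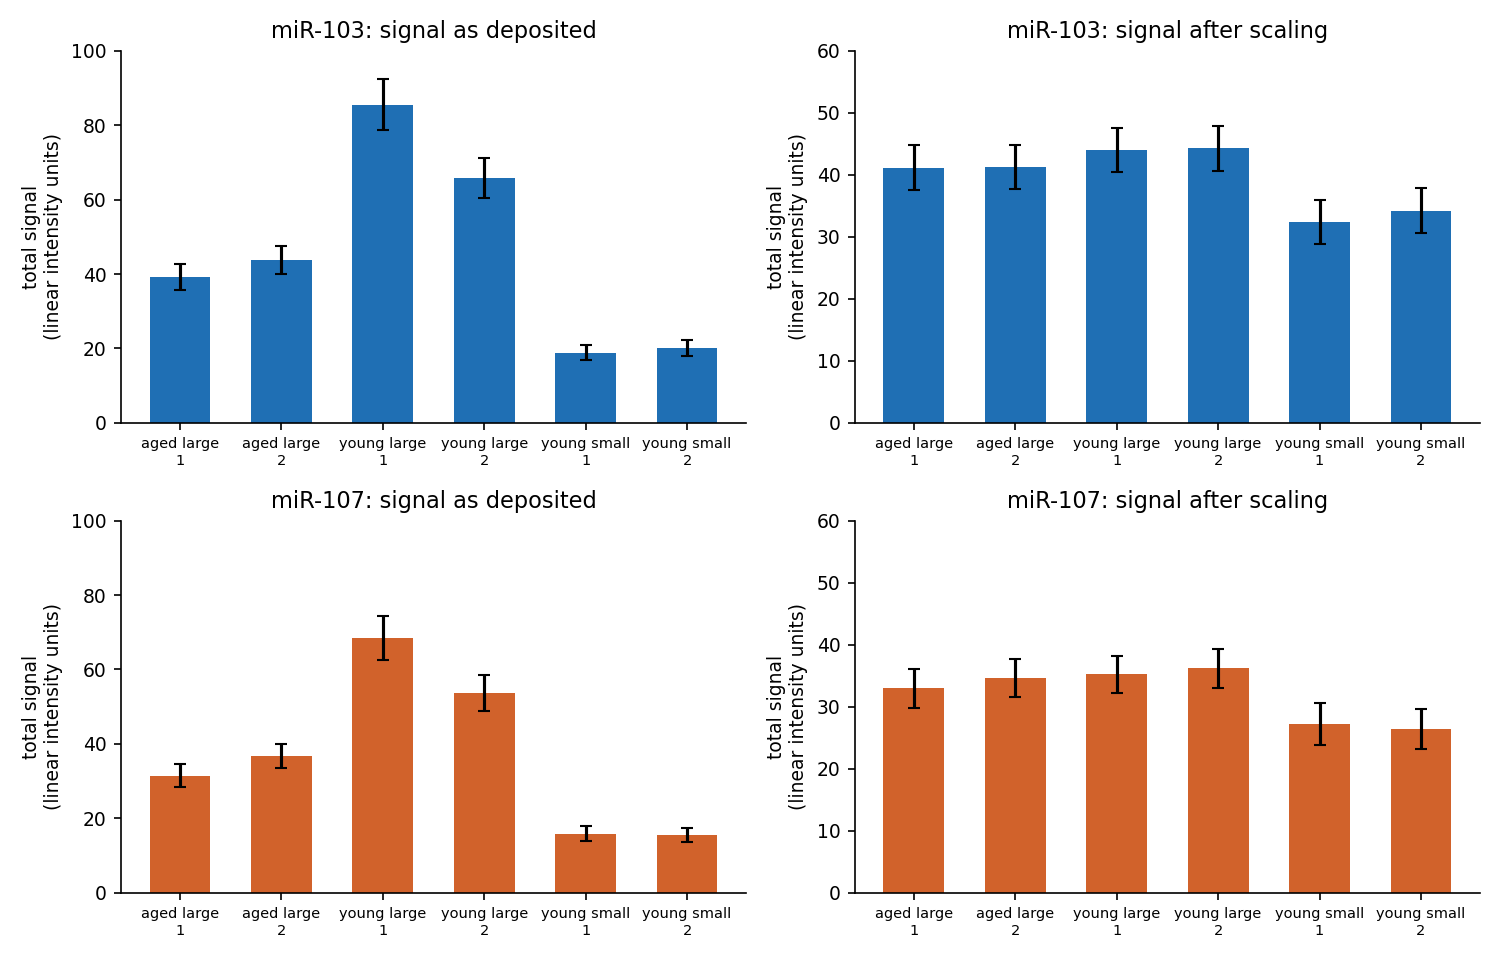
Total signal of miR-103 (upper row) and miR-107 (lower row) on each array, as deposited (left) and after scaling between arrays (right), in linear intensity units; bars are single arrays and error bars the deposited error of the signal. Raw miR-103 runs from 18.9 to 85.5, and after scaling from 32.4 to 44.3, with both young small arrays lowest in every panel.

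The scaling was not independent of miR-103. The percentile stood at a scaled signal of 41.5, which miR-103 in large oocytes nearly met: its signal was 0.991 and 0.995 times the percentile on the aged large arrays and 1.06 and 1.07 times on the young large arrays. On aged large array 2 it was 1 of the 2 microRNAs between which the percentile was drawn. The other was miR-15b, which also stood just above the percentile on both young large arrays, so its scaled level was held near the percentile there. The small gap between duplicates of miR-103, which on the log2 scale was 0.0054 in size in aged large and 0.0094 in young large oocytes, beside a median absolute gap of 0.12 in aged large and 0.098 in young large oocytes over all microRNAs detected on both arrays, has to be read with that in mind. With both members left out of the percentile, miR-103 had 40.7 and 42.3 in aged large, 45.2 and 45.3 in young large, and 31.3 and 33.3 in young small oocytes. miR-107 then had 32.6 and 35.5 in aged large, 36.2 and 37.01 in young large, and 26.3 and 25.7 in young small oocytes. The order of the groups was as before, without overlap, and its share over all microRNAs was not counted here either.

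The first comparison, which the series text ties to reproductive ageing, set aged large against young large oocytes. Neither member passed the test after adjustment (limma, unadjusted p = 0.0376 for miR-103 and 0.101 for miR-107). miR-103 had a scaled signal of 41.2 ± 0.108 in aged large and 44.2 ± 0.203 in young large oocytes (SD, n = 2 each). Its log2 difference was -0.099 ± 0.03 (SE; limma, adjusted p = 0.0935 over 97 microRNAs tested), with a 95% interval of -0.19 to -0.0099 that is not adjusted for the number of tests. miR-107 had 33.8 ± 1.18 in aged large and 35.7 ± 0.674 in young large oocytes (SD, n = 2 each), and its log2 difference was -0.080 ± 0.036 (SE; limma, adjusted p = 0.199), with a 95% interval of -0.19 to 0.027. The lower ends of the intervals correspond to 0.878 times the young large level for both, and a p above the threshold of 0.05 does not show that the groups are alike. The width of the intervals depended on the floor. With a lower floor the SE was 0.072 for miR-103 and 0.074 for miR-107. The unadjusted interval of miR-103 then included 0 (limma, unadjusted p = 0.233).

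Of the 97 microRNAs tested for ageing, 29.9% passed. Both aged large arrays lay below both young large arrays for miR-103 and for miR-107, which held for 27.8% of those tested. The members ranked 26th and 28th from the lowest difference among the 97. The young large arrays also entered the comparison in which the members were picked as high, so the 2 comparisons share them. That choice favours a negative difference for ageing, so the members' signs and p-values here are not free of it.

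The scaling decided how large the ageing difference was and whether it passed. Under 8 other ways of scaling, the log2 difference was negative in all 8 for each member, from -0.85 to -0.043 for miR-103 and from -0.84 to -0.025 for miR-107. miR-103 passed under 4 of the 8 and miR-107 under 3 (limma, adjusted p from 0.0121 to 0.824 and from 0.00799 to 0.958). Without scaling 55 of all 97 tested passed as lower, and with the total signal 25 did. The number was 26 with the total without miR-720 and 17 with quantile normalization. These are the 4 scalings under which miR-103 passed. Without any scaling the raw signals of aged large oocytes averaged 0.549 times those of young large oocytes for miR-103 and 0.558 times for miR-107, while the median log2 difference over all tested microRNAs moved by -0.65. With both members left out of the percentile the log2 differences were -0.13 for miR-103 and -0.11 for miR-107, and neither passed (limma, adjusted p = 0.116 and 0.21). miR-103 also passed when young small array 2 was left out (limma, adjusted p = 0.00821) and when only the 4 arrays compared were fitted (limma, adjusted p = 0.0118).

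**Figure D2:**
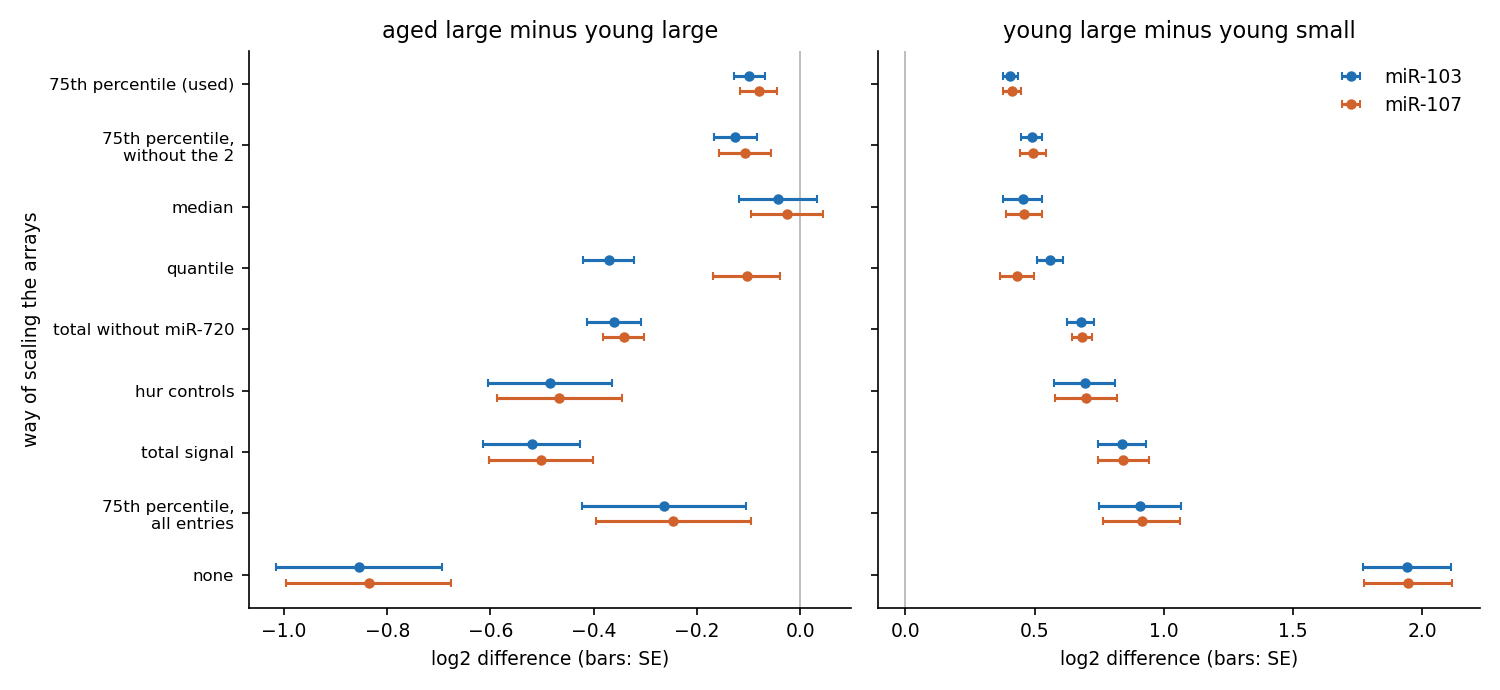
Log2 difference of miR-103 and miR-107 for aged large minus young large oocytes (left) and young large minus young small oocytes (right), by the way the arrays were scaled; bars are standard errors. Every point lies below 0 on the left and above 0 on the right, and the points without scaling, at -0.85 and 1.94 for miR-103, lie farthest out. The choice of the members favours both signs.

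The second comparison, which the series text ties to oocyte growth, set young large against young small oocytes, and is the one on which the members were chosen. The scaled signal of miR-103 averaged 44.2 ± 0.203 in young large oocytes and 33.3 ± 1.26 in young small ones (SD, n = 2 each), a log2 difference of 0.41 ± 0.03 (SE), or 1.33-fold. That of miR-107 averaged 35.7 ± 0.674 in young large oocytes and 26.8 ± 0.634 in young small ones (SD, n = 2 each), with a log2 difference of 0.41 ± 0.04 (SE), also 1.33-fold. In order of the difference miR-103 stood 14th and miR-107 13th from the highest of 94 microRNAs tested. The groups did not overlap for either, with young large above young small, as for 27.7% of those tested, and 18.1% of those tested passed as higher in young large oocytes.

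As deposited, the signals of young large oocytes averaged 3.87 times those of young small oocytes for miR-103 and 3.89 times for miR-107. Most of that difference was shared with the arrays as a whole. The log2 difference after scaling stayed positive for both members under each of the 8 other scalings, from 0.45 to 1.94 for miR-103 and from 0.43 to 1.95 for miR-107, and none of these scalings moved the median of all tested microRNAs down. Among the 56 microRNAs detected on all arrays the median log2 difference was -0.27, and the members lay 0.67 (miR-103) and 0.68 (miR-107) above it. For ageing the median of the 56 was 0.12, and the members lay at -0.22 (miR-103) and -0.20 (miR-107) relative to it. Aged large oocytes were set beside young small ones without a test, since age and size both differ. Under the scaling used, the aged large oocytes were 1.24-fold higher for miR-103 and 1.26-fold higher for miR-107.

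**Figure D3:**
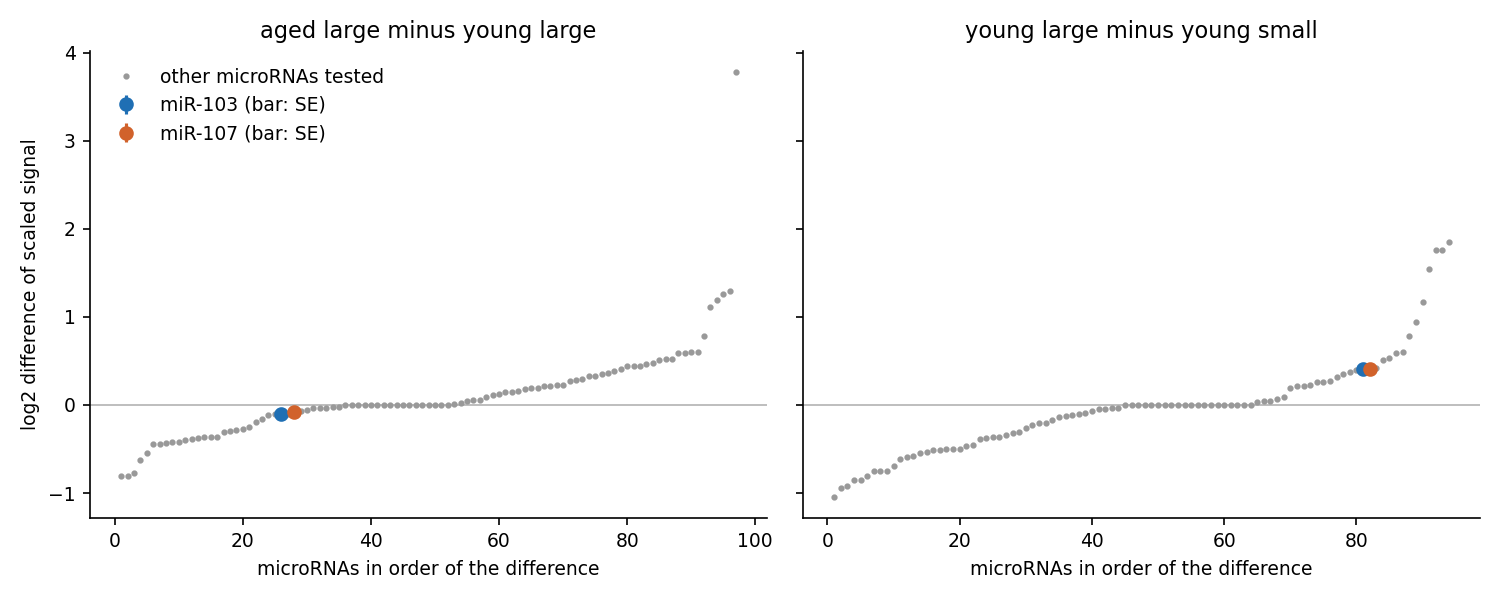
Log2 difference of scaled signal for every microRNA tested, in order, for aged large minus young large (left, 97 microRNAs) and young large minus young small oocytes (right, 94 microRNAs); coloured points are miR-103 and miR-107 with standard errors. The members sit side by side in both panels, a little below 0 on the left (-0.099 and -0.080) and at 0.41 on the right.

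The ratio of the 2 members varied little over the arrays. The members were picked for a joint rise between the young small and young large arrays, so a steady ratio on those 4 arrays restates the choice, and only the aged large arrays took no part in it. The 2 members are also identical at 22 of 23 bases, and how much of either signal came from the other RNA was not tested. A difference between their changes does not depend on any scaling by 1 factor per array, because the factor cancels within an array. The log2 ratio of miR-107 to miR-103, less its mean over the 6 arrays, was -0.019 and 0.047 in aged large, -0.019 and 0.010 in young large, and 0.053 and -0.073 in young small oocytes. The values of the 3 groups overlapped, and their whole span of 0.13 on the log2 scale, or 1.09-fold, was under the smallest error of the ratio on any array, 0.17, as propagated from the deposited errors. Over the same arrays the raw signal of miR-103 spanned 4.53-fold and that of miR-107 4.40-fold.

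The change of miR-107 minus that of miR-103 was 0.018 for aged large minus young large oocytes (exact two-sided permutation test over arrays, p = 1). For young large minus young small oocytes, where the choice of the members favours a small value, it was 0.006 and is given without a test. With 2 arrays against 2, the smallest p this test can give is 0.333, so the ageing test cannot pass the threshold and says nothing of equality. Quantile normalization, which does not use 1 factor per array, gave 0.27 for ageing and -0.13 for growth.

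**Figure D4:**
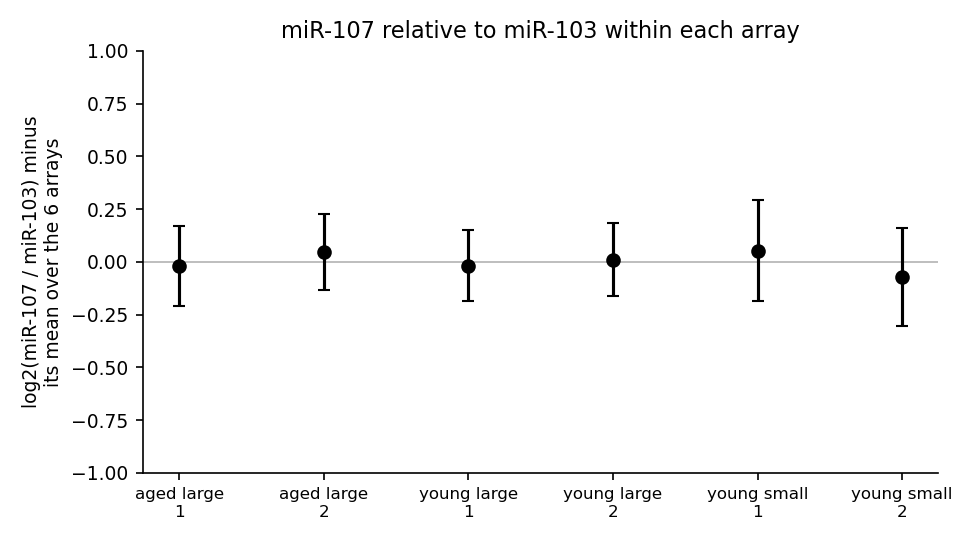
Log2 ratio of miR-107 to miR-103 on each array, less its mean over the 6 arrays; error bars are propagated from the deposited errors of both signals. The 6 points lie between -0.073 and 0.053, and every error bar crosses 0.

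By profile over the arrays each member ranked first in likeness to the other, which their choice for a joint rise favours, since 4 of the 6 arrays are those it used. Signal shared between these near-identical RNAs was not tested here either. Likeness was the root mean square difference of log2 signals over the 6 arrays after each microRNA's own mean was taken off, among 55 others detected on all arrays. It was 0.043 between miR-103 and miR-107, against a median of 0.388 over the candidates for miR-103 and 0.389 for miR-107. The next 4 were the same and in the same order for both members. They were miR-15b, known for restraining the cell cycle (0.071 from miR-103 and 0.083 from miR-107), miR-30c (0.072 and 0.086), miR-200c of the epithelial miR-200 family (0.073 and 0.092) and miR-365 (0.117 and 0.109).

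Those 4 were chosen on these same arrays for likeness to members that were picked for a rise. The choice favours the signs of their differences in both comparisons, so the p-values given for them are no independent support. For aged minus young large oocytes, none of the 4 passed under the scaling used, with log2 differences of -0.070 for miR-15b, -0.19 for miR-30c, -0.062 for miR-200c and -0.11 for miR-365. All 4 were also negative under the 8 other scalings, of which miR-30c passed under 7, miR-200c and miR-365 under 4 each and miR-15b under 1. Of all 97 tested, between 3 and 55 passed as lower under those 8. For young large minus young small oocytes, miR-30c and miR-200c rose, with log2 differences of 0.37 ± 0.061 (limma, adjusted p = 0.0198) and 0.26 ± 0.052 (limma, adjusted p = 0.0315). miR-15b had 0.28 ± 0.073 and miR-365 0.23 ± 0.091 (SE; limma, adjusted p = 0.0612 and 0.148) and did not pass. All 4 were positive under the 8 other scalings, of which miR-30c passed under 7, miR-200c and miR-365 under 6 each and miR-15b under 4, so which of them passed depends on the scaling. Of all 94 tested, between 17 and 84 passed as higher under those 8. These likenesses come from 6 arrays in 3 groups and were not tested.

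**Figure D5:**
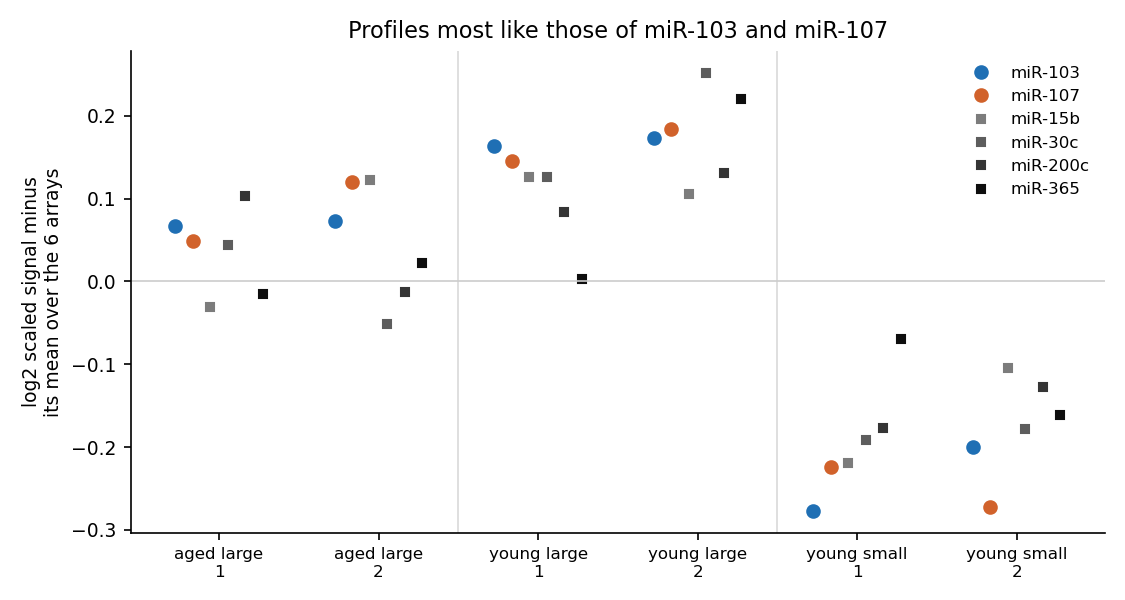
Log2 scaled signal of miR-103, miR-107 and the 4 microRNAs with the most similar profiles, each less its own mean over the 6 arrays, by array. All 6 microRNAs lie below 0 on both young small arrays and above 0 on both young large arrays, and miR-103 and miR-107 spread least from each other. The way the 6 were chosen, on these same arrays, favours that pattern.

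The miR-15 and miR-16 family, which carries the first letters of miR-103 and miR-107 shifted by 1 base, was taken as the nearest set of relatives. Of 7 on the array 3 were tested. For ageing, miR-16 and miR-15a fell, with log2 differences of -0.30 ± 0.01 and -0.25 ± 0.05 (SE; limma, adjusted p = 0.0011 and 0.03). miR-15b, which stood next to the scaling percentile on aged large array 2 and both young large arrays, did not pass. Over all 97 tested, 15.5% passed as lower and 14.4% as higher. Under the 8 other scalings between 0 and 3 of the 3 passed as lower, with 0 under the percentile over all entries and under the median. The median of the 3 was -0.25, negative under each of the 8 other scalings, beside 0.00 over all 97 tested. For growth none of the 3 passed in limma under the scaling used (1 at an unadjusted p under 0.05), with a median of -0.040 that turned positive under all 8 others. miR-15b and a copy of miR-16 are also intronic, in the Smc4 gene. A difference between this family and the members was not tested.

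Other microRNAs of introns in protein-coding genes moved in both directions. Of 64 on the array 20 were tested, of which 19 could be placed by RefSeq and had at least 1 gene inside a protein-coding gene. For ageing 2 rose, 5 fell and 13 did not pass, with a median log2 difference of -0.035, negative under all 8 other scalings. The rises were miR-483 in Igf2 and miR-342-3p in Evl, with log2 differences of 3.78 ± 0.13 and 0.52 ± 0.03 (SE), and the falls with the smallest p were those of miR-16 and miR-26a, at -0.30 ± 0.01 and -0.36 ± 0.03 (SE). miR-483*, from the other arm of the miR-483 hairpin and named after its value was seen, had 0.15 ± 0.45 (SE) and did not pass. For growth 5 rose and 4 fell, with a median of 0.00, which was positive under all 8 other scalings. The 5, named after their values were seen, were miR-652 at 0.95, miR-140* at 0.60, miR-342-3p at 0.51, miR-30c at 0.37 and miR-30e at 0.35 on the log2 scale. The 4 falls, also named after their values were seen, were those of miR-877* at -0.85, miR-93 at -0.69, miR-26b at -0.50 and let-7g at -0.37, while under the 8 other scalings between 0 and 3 of the 20 passed as lower and between 5 and 19 as higher. For ageing between 1 and 12 passed as lower there and between 1 and 3 as higher. Over all microRNAs tested, 29.9% passed for ageing and 37.2% for growth.

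Lists tied to roles known for miR-103 and miR-107 were tallied in the same way. Of 12 tested microRNAs linked to insulin and lipid metabolism, 6 rose and none fell in aged large oocytes, with a median log2 difference of 0.29 that turned negative without scaling and was 0 or above under the other 7. They were 5 let-7 members and miR-223, with let-7c at 1.29 ± 0.08, let-7b at 1.26 ± 0.07, let-7d at 0.60 ± 0.08 and miR-223 at 1.11 ± 0.17 (SE). Under the 8 other scalings between 0 and 6 of the 12 passed as higher and between 0 and 3 as lower, with none higher and 3 lower without scaling. For growth, 1 of the 12 rose and 8 fell under the scaling used, but between 1 and 11 passed as higher and between 0 and 6 as lower under the others, and 11 were higher and none lower without scaling. Over all 97 tested for ageing, 14.4% passed as higher and 15.5% as lower. Over all 94 tested for growth, 18.1% passed as higher and 19.1% as lower. Of 6 tested p53-linked microRNAs, 3 fell and none rose for ageing (miR-141 at -0.81 ± 0.03, miR-16 and miR-15a), and for growth 1 rose (miR-200c) and 2 fell (miR-29a at -0.59 and miR-29b at -0.50). Of 14 linked to hypoxia and the cell cycle, 2 rose (let-7a and let-7b) and 8 fell for ageing, miR-19b at -0.55 ± 0.01 and miR-20a at -0.40 ± 0.03 (SE) among them, while for growth none rose and 7 fell. These counts also moved with the scaling. Under the 8 others, the p53-linked list had 0 to 6 lower and none higher for ageing, and 0 to 6 higher and 0 to 2 lower for growth. The hypoxia list had 0 to 2 higher and 0 to 11 lower for ageing, and 0 to 14 higher and 0 to 5 lower for growth, with all 14 higher without scaling. For growth the medians of these 3 lists, -0.52, -0.083 and -0.12, turned positive under 1, 6 and 5 of the 8 other scalings. For ageing the medians of the p53-linked and the hypoxia lists, -0.17 and -0.29, were negative under all 8. Under the scaling used, each 0 for ageing here stayed 0 at an unadjusted p under 0.05 in limma, and the 0 rises for growth in the hypoxia list became 2. let-7a and miR-29a were named after their values were seen. The lists overlap in members and were chosen with earlier results of these data known.

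Most markers of other cells were not detected, but some granulosa and blood cell markers had signals of the members' size or near it. miR-202-3p (25.2 to 41.2) and miR-21 (10.1 to 13.0), both granulosa and follicle cell markers, were detected on all 6 arrays. The blood cell marker miR-223 had 50.5 and 54.3 on the aged large arrays. Of 7 granulosa and follicle cell markers 4 were detected on at least 1 array, and the summed scaled signal of the 7 was 55.2 to 69.97 in aged large, 49.8 to 50.1 in young large and 56.9 to 58.02 in young small oocytes. None of 6 markers of stroma, smooth muscle and endothelium was detected, and their sums were 0.126 to 2.40 over all arrays, with miR-143 and miR-145 at or below 0. Of 7 blood cell markers only miR-223 was detected, and the sums were 53.2 to 57.2 in aged large, 26.6 to 27.7 in young large and 11.2 to 11.6 in young small oocytes. The sum of 6 early-embryo microRNAs known from oocytes, the miR-290 to miR-295 cluster, was 136 to 139 in aged large, 121 to 130.02 in young large and 43.4 to 46.6 in young small oocytes. The blood cell sum was higher in large than in small young oocytes, as the members were, and higher again in aged large oocytes, where the members' signals were not. The part of granulosa, follicle or blood cells in the values of miR-103 and miR-107 was not tested.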

How the data were processed

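Oocyte RNA was measured on 6 arrays whose microRNA names follow miRBase 10.1, per the labels' series text. The submitters' processing notes name Agilent Feature Extraction 9.5. Per the file headers, the deposited scanner files hold a background-subtracted total intensity for each microRNA with its error and a yes-or-no detection call. They also hold, per the file headers, the fraction of its spots kept as inliers. The deposited series table repeats these intensities with values under 10 set to 0 (0 entries differed). The 577 microRNA entries were used and 23 control entries left out. Signals were divided by each array's 75th percentile among the 56 entries that every array detected, floored at 6.17 and put on the log2 scale. The deposited values themselves are linear.

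A microRNA entered a test if it was detected on both arrays of either group compared. Group means were fitted to all 6 arrays with limma 3.58.1 in R 4.3.3 (lmFit, eBayes), in two-sided tests adjusted after Benjamini and Hochberg, threshold 0.05, with 3 residual degrees of freedom left. The fit shares variance across microRNAs, of which 16 lay under the floor on every array, and this narrows standard errors. On simulated arrays the fit missed most changes of the smallest size made, and with the largest changes more of its calls were false than the threshold allows. The number of arrays limits the precision. Sequences are from RefSeq (GRCm38.p6), aligned with Biopython 1.88, and figures were drawn with matplotlib 3.10.9.

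The members and lists were chosen with earlier results of these data known. Named microRNAs were the 2 members, the 5 with the most similar profile to each, up to 4 per list with the smallest unadjusted p for ageing, and detected markers; others are said to be named after their values were seen. Alternatives were 8 scalings, a lower floor, a pseudocount of 1, 2 other filters, detection as 3 times the error, the series table, an intensity trend or a robust prior in eBayes, a fit to the 4 arrays of the comparison alone, a block for the replicate number, and each array left out. A crossed block was added after the data were seen.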

Additional observations from a re-analysis of the deposited data

How the results depend on the processing

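The members' directions held under the 25 alternatives run, negative for ageing and positive for growth. The positive sign restates the choice of the members. Through the shared young large arrays that choice also favours the negative sign, so neither is independent support. For ageing, miR-103 and miR-107 also passed without scaling (-0.85 and -0.84), with the total signal (-0.52 and -0.50) and with the total without miR-720 (-0.36 and -0.34), and miR-103 with quantile normalization (-0.37) and with only the 4 arrays compared (-0.10). Other settings weakened the ageing result of miR-103. Its unadjusted p was 0.233 with a lower floor, 0.221 with a pseudocount of 1 and 0.13 among microRNAs detected on all arrays (limma). With each array left out in turn, miR-103 lay between -0.10 and -0.094 and miR-107 between -0.12 and -0.045. For growth the values of miR-103 and miR-107 moved beyond the spread between replicates without scaling (1.94 and 1.95), with the total signal (0.84 and 0.84), the total without miR-720 (0.68 and 0.68), the percentile over all entries (0.91 and 0.91), the median (0.45 and 0.46), hur control entries (0.69 and 0.70) and the percentile without the members (0.49 and 0.49), and miR-103 with quantile normalization (0.56). With each array left out they lay between 0.40 and 0.42 for miR-103 and between 0.36 and 0.47 for miR-107. The change of miR-107 minus that of miR-103 turned to -0.13 for growth with quantile normalization, and with each array left out ran from -0.015 to 0.051 for ageing and from -0.057 to 0.069 for growth, with -0.0085 when young large array 2 was the one left out.

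The count past the threshold was 29 for ageing (14 higher, 15 lower) and 35 for growth (17 higher, 18 lower). For ageing it was 58 without scaling (3 and 55), 29 with the total signal (4 and 25), 34 with the total without miR-720 (8 and 26), 25 with quantile normalization (8 and 17), 23 with hur entries (5 and 18), 6 with the percentile over all entries and 12 without a filter. For growth it was 84 without scaling (84 and 0), 27 with the total signal (26 and 1), 40 with the total without miR-720 (30 and 10), 17 with the percentile over all entries (17 and 0), 30 with quantile normalization (19 and 11), 23 with hur entries (21 and 2), 34 with the percentile without the members (20 and 14), 1 without a filter and 16 with the series table. With each array left out it ran from 16 to 30 for ageing and from 13 to 36 for growth. The lowest were without young small array 1, and for ageing it was 19 when young large array 1 or young small array 2 was left out. With the replicate number as a block, the ageing count was 16 and the growth count 26, and the members' ageing calls did not change (limma, adjusted p = 0.122 for miR-103 and 0.302 for miR-107). Deviations of same-numbered arrays correlated at 0.15 for ageing and -0.16 for growth across 56 microRNAs, so the numbers were not taken to pair the arrays. A block with the numbers crossed gave 26 calls in each comparison. The cause of these changes was not tested.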
